A study of Mus musculus with 33 samples.

Results

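Immediate early genes are the first genes that a cell transcribes after a stimulus, without waiting for new protein to be made. The 10 described here are Fos, Fosb, Jun, Junb, Egr1, Egr2, Egr3, Nr4a1, Ier2 and Atf3, out of 52631 genes in a table of RNA levels from 33 mouse libraries. They were chosen on these levels, for being lower once stem cells left their culture conditions and higher again on day 16 in both treated arms, so both of those steps are given as a description, with no test. All 10 passed the filter on low values.

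The libraries fall into 11 groups of 3 replicates, all of strain 129S2/SvPas per the labels. Cells of the RA/CHIR arm were collected on days 4, 7, 10 and 16. They had received all-trans retinoic acid at 10 µM with CHIR at 5 µM, an inhibitor of GSK3 whose use switches on Wnt signalling through beta-catenin. Cells of the RA arm were collected on the same days and had received retinoic acid at 10 µM alone. In both arms cells were plated on gelatin in 15% serum with the inducers for 10 days, and then kept in 10% serum without inducers for 6 days, so that the day-16 groups had been off the inducers and in less serum. The labels call the RA/CHIR cells XEN-like and the RA cells SMC-like. The other groups are an extraembryonic endoderm line (XEN) and smooth muscle cells (SMC), both in 15% serum, and the untreated embryonic stem cells (mES), grown with LIF in 15% serum on inactivated embryonic fibroblasts. The labels do not say whether feeder fibroblasts were removed before RNA was made, nor whether replicates are separate cultures, so p-values may measure technical spread only.

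Serum, growth factors and stress signals reach immediate early genes through kinase cascades such as ERK and p38, which act on factors already bound at their promoters, among them SRF with its ELK partners and CREB. The transcripts are short-lived, so their level follows recent signalling. The products are themselves regulators of transcription. FOS and FOSB pair with JUN and JUNB to form the dimeric factor AP-1, the EGR proteins are zinc finger factors, NR4A1 is an orphan nuclear receptor, IER2 is a nuclear protein, and ATF3 is a factor of the ATF/CREB family that is induced by many kinds of stress.

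Promoter windows of 250 bases before to 50 bases after a start site, from RefSeq on GRCm38.p6, were at hand for 7 of the 10 genes. The 250 bases before the start are shown for 4 genes, in gene orientation: Fos and Nr4a1 because their levels differed most between the arms on day 16, Egr2 because it alone held a CArG box, and Atf3 because it differed between the arms in the other direction before day 16. Capitals mark TGACG or its reverse complement CGTCA (the core of a cyclic AMP response element), the CArG box, TATAAA, and the EGR-type word GCGNGGGCG on either strand. The stretches are chr15:101266596-101266845 for Nr4a1 (plus strand), chr12:85473640-85473889 for Fos (plus), chr10:67537619-67537868 for Egr2 (plus) and chr1:191183334-191183583 for Atf3 (minus).
Nr4a1: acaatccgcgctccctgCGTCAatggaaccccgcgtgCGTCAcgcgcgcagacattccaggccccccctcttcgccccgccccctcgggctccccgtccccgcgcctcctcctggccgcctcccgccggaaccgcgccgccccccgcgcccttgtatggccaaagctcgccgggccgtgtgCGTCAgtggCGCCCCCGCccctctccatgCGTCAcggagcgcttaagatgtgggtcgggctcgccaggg
Fos: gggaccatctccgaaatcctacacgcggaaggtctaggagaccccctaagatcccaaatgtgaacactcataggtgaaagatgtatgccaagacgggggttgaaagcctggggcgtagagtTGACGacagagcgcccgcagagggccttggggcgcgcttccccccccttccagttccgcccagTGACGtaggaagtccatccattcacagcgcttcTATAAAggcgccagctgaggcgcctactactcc
Egr2: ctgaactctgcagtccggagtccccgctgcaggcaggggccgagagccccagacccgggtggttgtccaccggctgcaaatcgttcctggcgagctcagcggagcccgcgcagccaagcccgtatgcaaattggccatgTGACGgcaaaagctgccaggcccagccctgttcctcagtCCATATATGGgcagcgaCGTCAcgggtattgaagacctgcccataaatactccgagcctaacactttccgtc
Atf3: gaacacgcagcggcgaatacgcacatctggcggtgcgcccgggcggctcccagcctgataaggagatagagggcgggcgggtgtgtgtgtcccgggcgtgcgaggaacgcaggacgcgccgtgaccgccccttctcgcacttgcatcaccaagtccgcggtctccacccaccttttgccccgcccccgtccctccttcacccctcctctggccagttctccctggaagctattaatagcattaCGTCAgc

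TGACG, searched on both strands, was found in 6 of the 7 genes with a window and in 23.0% of all 27025 genes with one, or 20.8% of all 32851 windows. Egr2 had 5 windows, of which the third is shown and the first held none of the words searched, and the other 6 genes had 1 each. The Nr4a1 window held it 4 times, beginning 233, 213, 69 and 40 bases before the start site, and the Fos window held it 129 and 66 bases before. The Egr2 window shown had it 111 and 55 bases before the start, and Atf3 had 1 copy 7 bases before. Fosb and Junb had 1 copy each, at 60 and 106 bases before their starts, and the Jun window had none. A CArG box, the word bound by SRF, began 72 bases before that Egr2 start and is held by 1.81% of genes. GCGNGGGCG was found in Fosb and Nr4a1, at 50 and 60 bases before the start, against 6.27% of genes. TATAAA was found in the windows of Fos and Junb, against 15.7% of genes. In Fos it began 33 bases before the start. In Junb it began at or after the RefSeq start, and the stretch before that start held none. The gene position given below begins Junb at 84978718 on the minus strand, downstream of that RefSeq start, which lies beside 84978749. Distances in Junb therefore depend on the start used. The whole palindrome TGACGTCA, in 2.03% of genes, and the AP-1 word TGANTCA, in 8.97%, were in none of the 7 genes' windows. These are matches of letters in short windows and were not tested as sites.

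All values below are FPKM, fragment numbers corrected for library size and transcript length, as deposited, and differences are on the scale of log2(FPKM + 1), which understates changes of genes near 0. No read counts come with the table, so depth behind each value is unknown. In the library sums of FPKM, from 597010 to 1086370, mES replicate 3 is the highest. Correlations between replicates over all tested genes lay between 0.980 and 0.989. In a bulk library, fewer cells of a kind and less RNA per cell cannot be told apart. The labelled identities of mES, XEN and SMC were checked on marker sums. The 5 stem cell markers summed to 2404 to 2954 FPKM in mES and to at most 0.717 in XEN. The 6 extraembryonic endoderm markers summed to 634 to 677 FPKM in XEN and to 43.9 to 45.7 in SMC, with 1 of them at 0 there. The 5 smooth muscle markers summed to 17160 to 17780 FPKM in SMC and to 198 to 359 in XEN. XEN-like RA/CHIR-16d had 997 to 1096 FPKM of endoderm markers, but also 178 to 188 of stem cell markers. SMC-like RA-16d had 7154 to 8066 FPKM of smooth muscle markers, but also 307 to 343 of endoderm markers.

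A single library, RA-16d replicate 2, stood apart from its group in these genes and is marked wherever it matters. All 10 were lower in it than in both other replicates. Of the 9875 genes with a mean of 5 FPKM or more in RA-16d, 20 (0.203%) were over 1 log2 unit below both other replicates in this library, and 5 of the 20 were Fos, Fosb, Egr1, Ier2 and Junb. In the other 32 libraries, none of the 10 genes was set apart in this way. Against the mean of replicates 1 and 3, the 10 genes had a median of -1.05 in replicate 2, while the median of all tested genes was 0 and 0.939% of them were lower by 1 or more. Fos was at 312, 41.0 and 315 FPKM in RA-16d replicates 1, 2 and 3, and Egr1 at 231, 61.0 and 239 FPKM. Nr4a1, at 451, 274 and 497 FPKM, and Jun, at 203, 165 and 244 FPKM, differed less between them.

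The list most like the 10 genes was lower in replicate 2 too, by less. The 32 other immediate early genes had a median of -0.37 in replicate 2, with 2 of them lower by 1 or more, Zfp36 among them at 122, 56.9 and 133 FPKM in replicates 1, 2 and 3. Their summed level was 3655, 3726 and 3823 FPKM, against a sum of 2075, 923 and 2253 FPKM for the 10 genes. Feedback regulators of ERK signalling had a median of 0.20, heat shock genes 0.08 and AP-1 target genes -0.02, with none lower by 1 in any of these lists. Integrated stress response genes had a median of -0.13 with 1 of 10 lower by 1, Ddit4, at 103, 49.9 and 149 FPKM in replicates 1, 2 and 3. Summed smooth muscle markers were 7268, 8066 and 7154 FPKM in the 3 replicates, and summed fibroblast markers 2965, 3647 and 3181 FPKM. The over-all correlations of replicate 2 with the others, 0.980 and 0.984, lay within the range of all replicate pairs. The cause was not tested.

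**Figure D1:**
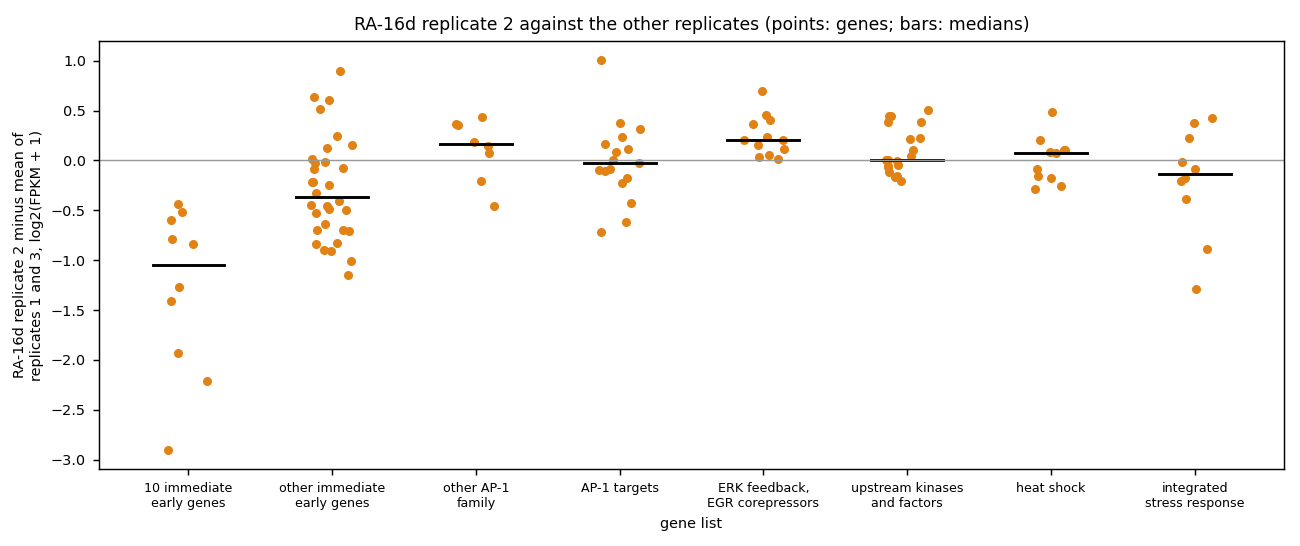
Each point is a gene, by list, and its height is RA-16d replicate 2 minus the mean of replicates 1 and 3 on the log2(FPKM + 1) scale, with bars at list medians. The 10 immediate early genes lie below 0 with a median of -1.05, against -0.37 for other immediate early genes and medians near 0 for the other lists.

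Across the course, the 10 genes drew a valley between stem cells and day 16. Their summed level was 578 to 664 FPKM in mES. In the RA/CHIR arm it was 119 to 124 FPKM on day 4, 133 to 137 on day 7, 142 to 156 on day 10 and 682 to 698 on day 16. The RA arm had sums of 119 to 125, 151 to 161, 152 to 156 and 923 to 2253 FPKM on the same days. XEN stood at 227 to 239 and SMC at 283 to 287 FPKM. The sums of the arms thus overlapped on days 4 and 10 and did not on days 7 and 16. On day 16 the RA sum nearest to RA/CHIR, 923 FPKM, was that of replicate 2, against 2075 and 2253 FPKM in replicates 1 and 3.

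**Figure D2:**
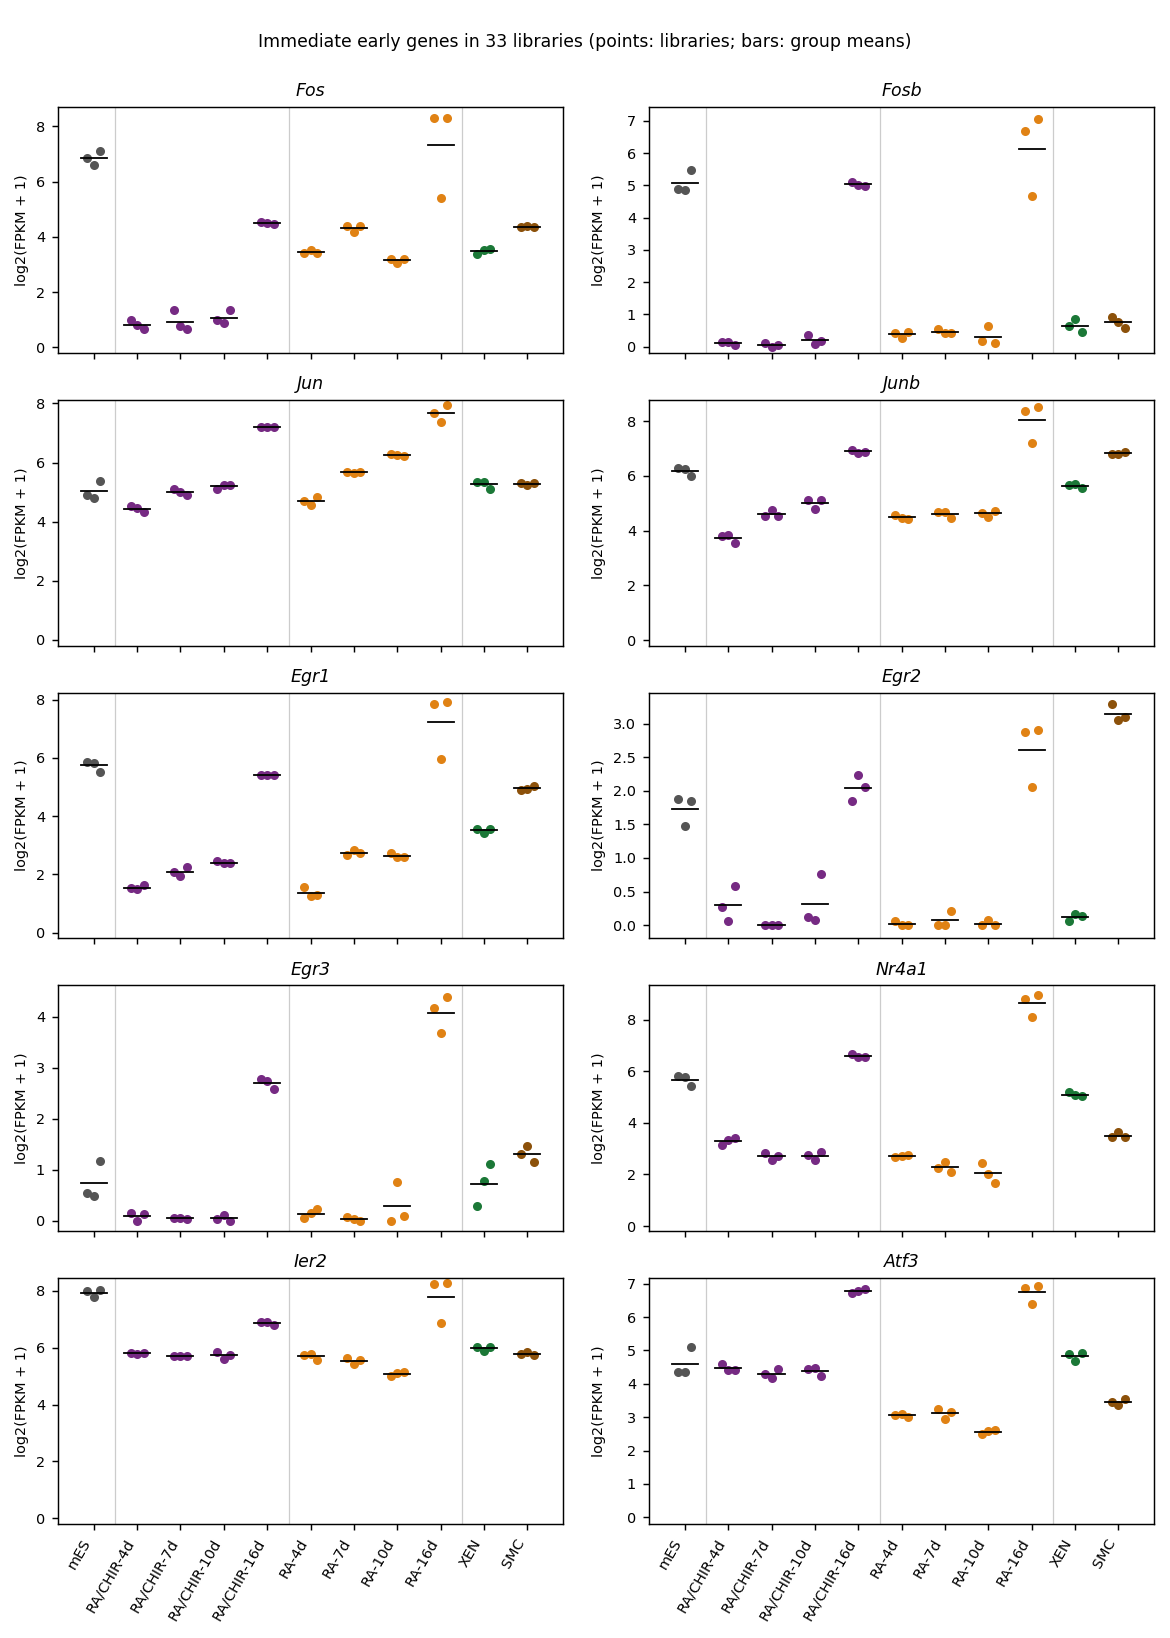
Each panel is a gene, each point a library, and the height is log2(FPKM + 1) for mES, the RA/CHIR arm and the RA arm by day, and the XEN and SMC lines, with bars at group means. Most genes are low from day 4 to day 10 and high on day 16 in both arms, while Jun changes little on leaving mES, and the low middle point of RA-16d is replicate 2.

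Fos, the partner that gives AP-1 much of its activity, marked the arms apart at every time. In mES it was at 113, 96.6 and 135 FPKM. In the RA/CHIR arm Fos read 0.981, 0.768 and 0.581 FPKM on day 4, 1.54, 0.713 and 0.577 on day 7, 0.987, 0.838 and 1.54 on day 10, and 22, 21.6 and 21 on day 16. In the RA arm it read 9.75, 10.4 and 9.55 FPKM on day 4, 20.0, 16.9 and 20.1 on day 7, 8.28, 7.30 and 8.08 on day 10, and 312, 41.0 and 315 on day 16. No RA/CHIR library reached the lowest RA library of its day. XEN had 9.40, 10.6 and 10.9 FPKM and SMC 19.3, 19.8 and 19.4 FPKM, so that the RA/CHIR cultures before day 16 stood lowest of all groups. In the order of group means, RA-16d (223 FPKM) overlapped mES (115), SMC (19.5) overlapped RA-7d (19.0), XEN (10.3) overlapped RA-4d (9.90), and the RA/CHIR groups of days 4, 7 and 10 overlapped each other.

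Fosb, the close relative of Fos, was nearly off between the ends of the course, as Egr2 and Egr3 were. Fosb had 28.4, 27.7 and 43.4 FPKM in mES and at most 0.540 FPKM in any treated library of days 4 to 10. On day 16 it was at 33, 31.1 and 30.9 FPKM in RA/CHIR and at 102, 24.4 and 133 FPKM in RA, where replicate 2 lay below every RA/CHIR library. Neither line expressed much of it, with 0.358 to 0.805 FPKM in XEN and 0.495 to 0.907 FPKM in SMC.

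Jun followed another course from its partners. Its libraries in mES, at 29.1, 26.6 and 40.2 FPKM, overlapped those of RA-4d, at 25.2, 22.7 and 27.5 FPKM, so the description that chose these genes holds weakly for it at the first step. In the RA arm Jun was at 50.2, 49.3 and 50.5 FPKM on day 7 and at 77.5, 74.9 and 73.0 on day 10, above all mES libraries. In the RA/CHIR arm it was at 22, 21.1 and 18.9 FPKM on day 4, 33.2, 30.9 and 28.9 on day 7 and 33.2, 36.7 and 36.6 on day 10. On day 16 Jun had 147, 148 and 146 FPKM in RA/CHIR against 203, 165 and 244 FPKM in RA. Jun (chromosome 4, 95049034 to 95052222, GRCm38, minus strand) overlaps the antisense gene Junos, and as counting is not stated to use strand, reads of both cannot be told apart.

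Junb, an AP-1 subunit that is often less active than JUN, kept a clear level throughout. In mES it was at 77.6, 74.5 and 62.2 FPKM. The RA/CHIR arm had 13.1, 13.2 and 10.7 FPKM on day 4, 21.9, 25.8 and 22.1 on day 7, 33.3, 26.9 and 33.6 on day 10 and 122, 114 and 117 on day 16. The RA arm had 20.7 to 22.8 FPKM on day 4, 21.2 to 24.8 on day 7, 21.6 to 25.5 on day 10, and 332, 144 and 366 on day 16. The RA libraries of days 4 to 10 thus overlapped each other, while the RA/CHIR libraries stood higher on each later day. It also stood high in SMC, at 110 to 115 FPKM, against 46.4 to 50.7 FPKM in XEN. Junb (chromosome 8, 84974484 to 84978718, minus strand) overlaps Prdx2 on the other strand and may share reads with it.

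The EGR genes code for zinc finger factors that bind GC-rich words. Egr1 was at 57.6, 56.1 and 45.1 FPKM in mES, then at 1.87, 1.82 and 2.08 in RA/CHIR-4d and 1.94, 1.37 and 1.42 in RA-4d. By day 10 it had 4.46, 4.2 and 4.23 FPKM in RA/CHIR and 5.60, 4.99 and 5.10 FPKM in RA, and on day 16 it had 41.4, 41.8 and 42.0 FPKM in RA/CHIR and 231, 61.0 and 239 FPKM in RA. Egr2, known for its part in hindbrain and Schwann cells, never passed 10 FPKM, and its highest group was SMC, at 8.85, 7.36 and 7.56 FPKM. Egr2 was listed at 0 in all RA/CHIR-7d libraries, and reached 2.59, 3.72 and 3.16 FPKM in RA/CHIR-16d and 6.37, 3.17 and 6.49 FPKM in RA-16d. Egr3 was low in mES, at 0.455, 0.403 and 1.26 FPKM, so its further drop covers little, and on day 16 it was at 5.91, 5.71 and 5.03 FPKM in RA/CHIR and 16.9, 11.8 and 20.0 FPKM in RA.

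Nr4a1 codes for the nuclear receptor also called Nur77. In mES it was at 54.7, 53.1 and 41.5 FPKM. In the RA/CHIR arm it was at 7.83, 9.11 and 9.68 FPKM on day 4, 6.20, 4.91 and 5.63 on day 7, 5.77, 4.96 and 6.25 on day 10, and 101, 92.2 and 92.9 on day 16. In the RA arm it was at 5.32, 5.61 and 5.73 FPKM on day 4, 3.81, 4.6 and 3.24 on day 7, 4.39, 3.03 and 2.18 on day 10, and 451, 274 and 497 on day 16. RA/CHIR libraries lay above RA libraries on days 4, 7 and 10, and below them on day 16. In XEN it had 35.5, 32.4 and 32.0 FPKM, above the 9.85, 11.4 and 9.83 FPKM of SMC.

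Ier2 and Atf3 complete the set. Ier2 had 253, 222 and 259 FPKM in mES, 46.9 to 55.9 FPKM in the libraries of day 4 in both arms, and 118, 119 and 111 FPKM in RA/CHIR-16d against 304, 115 and 310 FPKM in RA-16d. Ier2 is the gene least raised on day 16 with CHIR, and in RA-16d replicate 2 its level lay among those of the RA/CHIR libraries. Atf3 was at 19.4, 19.4 and 33.4 FPKM in mES. It stayed near that level under RA/CHIR, with 23.0, 20.3 and 20.5 FPKM on day 4, 18.8, 17.0 and 20.8 on day 7 and 20.9, 21.1 and 18 on day 10, so that the description that chose these genes does not hold for Atf3 at that step. In RA it was at 7.30, 7.61 and 6.99, then 8.39, 6.73 and 7.90, then 4.65, 5.00 and 5.16 FPKM on the same days. On day 16 both arms overlapped, at 105, 109 and 113 FPKM in RA/CHIR and 117, 83.3 and 122 FPKM in RA.

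Between day 4 and mES, a contrast the genes were chosen on, the median difference of the 10 genes was -2.24 in RA/CHIR and -1.97 in RA, with an SD, from the libraries' own medians in both groups, of 0.0982 in RA/CHIR and 0.145 in RA. In each arm 9 of the 10 had all day-4 libraries below all mES libraries, against 32.5% of tested genes in RA/CHIR and 34.7% in RA, and nothing is read from these counts. Fos differed by -6.02 in RA/CHIR and -3.40 in RA, and Fosb by -4.96 and -4.69, on a scale where the added 1 FPKM limits the difference of genes that come near 0. Jun differed by -0.59 in RA/CHIR and -0.32 in RA, and Atf3 by -0.13 and -1.55. Both comparisons share the mES libraries. Summed fibroblast markers were 31.8 to 39.9 FPKM in RA/CHIR-4d and 33.8 to 37.3 FPKM in RA-4d, against 62.9 to 99.6 FPKM in mES, and their part in the levels of the 10 genes was not tested. From day 4 to day 10 the medians moved little, by -0.05 and 0.14 in the 2 steps of the RA/CHIR arm and by 0.07 and -0.13 in those of the RA arm. Within that stretch, Egr1 was 1.39 higher on day 7 than on day 4 in RA, and Fos 1.17 lower on day 10 than on day 7, with no overlap of libraries in either. Jun rose in RA by 0.97 and then 0.58, and Junb in RA/CHIR by 0.87 and then 0.41, also with no overlap. The share of all tested genes with no overlap is not given for these steps.

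From day 10 to day 16, the other contrast the genes were chosen on, all 10 were higher in both arms with no overlap between the groups. A share of 31.8% of tested genes did the same in RA/CHIR and 26.2% in RA. Under RA/CHIR the differences ran from 1.14 for Ier2 and 1.73 for Egr2 to 3.86 for Nr4a1 and 4.84 for Fosb, with a median of 2.52. Under RA they ran from 1.41 for Jun and 2.59 for Egr2 to 5.84 for Fosb and 6.59 for Nr4a1, with a median of 3.98, or 4.17 without replicate 2. The order of the genes depends on the added 1 FPKM. Jun had the wider step under RA/CHIR, at 2.02 against 1.41 in RA, or 1.55 in RA without replicate 2. The end of the inducers, the lower serum and the later day came together, so their parts cannot be told apart.

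Other immediate early genes, a list of 33 of which 32 could be tested, were called as well in this step. A gene is called at an adjusted p under 0.05 in limma, adjusted over all 16508 tested genes, with a log2 change of at least 1. In RA/CHIR 15 of the 32 rose and none fell, with a median of 0.95, where 8.47% of all tested genes were called higher. In RA 25 of the 32 rose and none fell, with a median of 1.68, or 27 without replicate 2, where 7.37% of all tested genes were called higher. Of all calls in that RA step 80.4% were higher, or 69.9% after quantile normalization. Nr4a3, a relative of Nr4a1, rose by 2.49 in RA/CHIR and 3.37 in RA. Zfp36, which codes for a protein that destabilises short-lived transcripts, rose by 2.51 and 3.73, and Dusp1, a phosphatase that turns off stress kinases, by 2.23 and 2.65.

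Of 19 upstream kinases and factors, 2 rose in RA/CHIR and 1 in RA, shares near those of all tested genes called higher, 8.47% and 7.37%. Srf, the factor that binds CArG boxes, rose in both arms, by 1.82 in RA/CHIR and 1.56 in RA. Of 17 tested AP-1 target genes, 8 rose and 1 fell in RA/CHIR, and 11 rose and 1 fell in RA. Heat shock genes were called in 0 of 11 higher and 1 lower in RA/CHIR, and in 3 higher and 0 lower in RA. Feedback regulators of ERK signalling rose in 3 of 12 in RA/CHIR and in 5 of 12 in RA, or 2 without replicate 2. Genes of the integrated stress response, a pathway that also induces Atf3, rose in 1 of 10 and fell in 5 in RA/CHIR, and rose in 3 of 10 and fell in none in RA. Of all tested genes, 6.28% were called lower in RA/CHIR and 1.8% in RA.

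**Figure D3:**
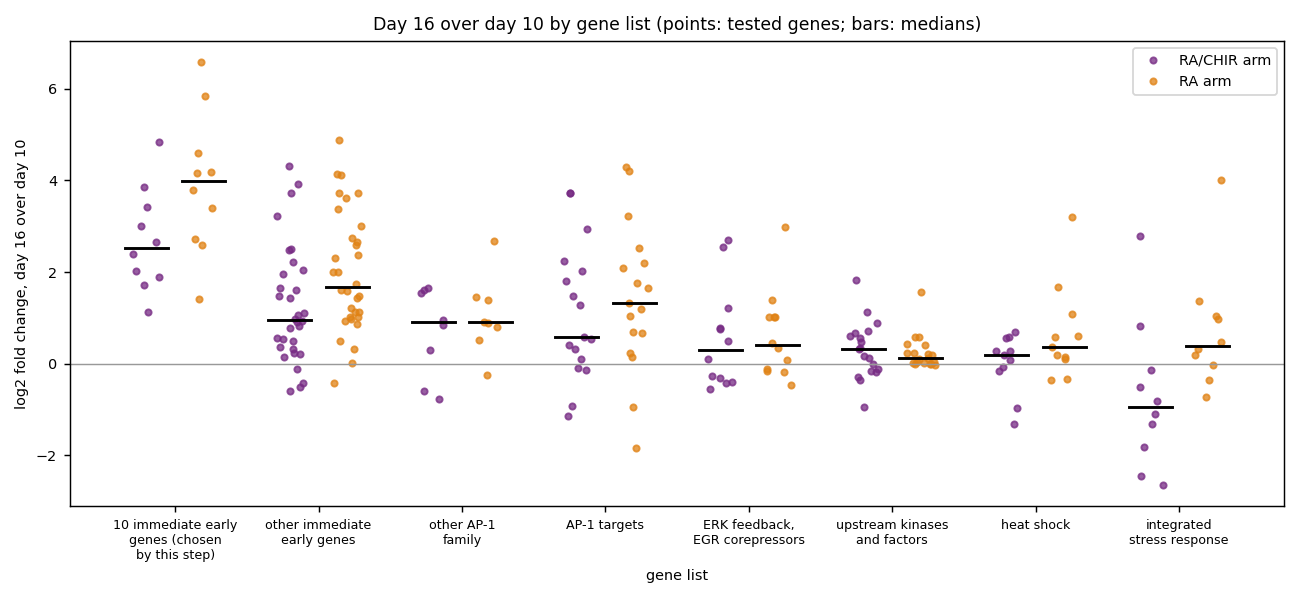
Each point is a tested gene of the list named below it, its height is the log2 fold change of day 16 over day 10, with the RA/CHIR arm left of the RA arm and bars at medians. The 10 genes were chosen by this step and have medians of 2.52 and 3.98, the other immediate early genes have 0.95 and 1.68, and the integrated stress response genes have -0.96 and 0.39.

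Cell type markers changed in the same step. Fibroblast markers summed to 469 to 516 FPKM in RA/CHIR-16d against 34.7 to 39.3 in RA/CHIR-10d, and 8 of 12 rose. In RA they summed to 2965 to 3647 FPKM on day 16 against 222 to 237 on day 10, and 10 of 12 rose. Smooth muscle markers summed to 441 to 456 FPKM in RA/CHIR-16d against 105 to 113 in RA/CHIR-10d, where 3 of 5 rose, and to 7154 to 8066 FPKM in RA-16d against 1141 to 1154 in RA-10d, where 5 of 5 rose. None of these markers was at 0 in all libraries of a day-10 or day-16 group. Of the lines, XEN had a fibroblast marker sum of 1.87 to 3.46 FPKM, with 2 markers at 0, and SMC had 13935 to 14176 FPKM, above RA-16d in that sum and below it in 9 of the 10 genes. Their part in the levels of the 10 genes was not tested.

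The effect of CHIR was tested by RA/CHIR against RA at each day. The choice of genes did not set the arms against each other, but it used the levels of both, and the lower levels in RA/CHIR on day 16 were known when the genes were chosen. On day 4, 2 of the 10 genes were called, in a background of 7.63% of 16508 tested genes. Fos was lower, at -2.62 ± 0.41 (standard error, limma, adjusted p = 7.90e-06), and Atf3 was higher by 1.42 ± 0.14 (limma, adjusted p = 7.82e-09). Of the uncalled genes, Junb stood at -0.76, Nr4a1 at 0.59, Jun at -0.27 and Fosb at -0.27, each with no overlap between the groups. Jun and Fosb also had an adjusted p above 0.05, and Fosb averaged only 0.0775 FPKM in RA/CHIR-4d and 0.300 FPKM in RA-4d. The share of all tested genes with no overlap is not given for days 4, 7 and 10, so nothing is read from it. On day 7 the called genes were again Fos, at -3.39 ± 0.41 (limma, adjusted p = 1.13e-07), and Atf3, at 1.20 ± 0.14 (limma, adjusted p = 1.18e-07), in a background of 10.7%. Jun, at -0.67 ± 0.12, did not reach the fold required, while its groups did not overlap. The same held for Nr4a1, at 0.43. The groups of Egr1, at -0.65, Fosb, at -0.41, and Ier2, at 0.17, did not overlap either. These genes also missed the adjusted p (limma, 0.0516 for Egr1, 0.335 for Fosb and 0.511 for Ier2).

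On day 10 there were 3 called genes of 10, in a background of 15.4%. With CHIR, Fos was lower by 2.08 ± 0.41 (limma, adjusted p = 0.000100) and Jun was lower by 1.06 ± 0.12 (limma, adjusted p = 1.20e-08). Atf3 was higher by 1.82 ± 0.14 (limma, adjusted p = 3.43e-11). The RA libraries of Jun stood higher on each later day up to day 10. Nr4a1, at 0.69, Ier2, at 0.65, and Junb, at 0.38, were higher with CHIR with no overlap of libraries, but under the required fold. The same held for Egr2, at 0.296, while Egr1, at -0.233, was lower with CHIR with no overlap. Junb, Egr2 and Egr1 also had an adjusted p above 0.05 in limma. Fosb, Egr2 and Egr3 were under 1 FPKM in every treated library of days 4 to 10, below the 1 FPKM that is added before taking logs.

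Beside Atf3, some genes of the integrated stress response were called higher with CHIR before day 16, most of them on day 10 only. Not all went this way, as Ddit3 averaged 33.3 FPKM in RA/CHIR-7d and 47.5 FPKM in RA-7d. Of the 10 in the list, 2 were called higher on day 4, 1 on day 7 and 6 on day 10, and none lower, where 3.34%, 4.06% and 6.35% of all tested genes were called higher. Asns, an amino acid synthesis gene activated by ATF4, was 2.47, 3.24 and 3.49 higher on those days. Whether Atf3 and these genes share a cause was not tested. Beside Fos, feedback regulators of ERK signalling and the EGR corepressors had 1, 3 and 6 of 12 called lower on days 4, 7 and 10 and none higher, where 4.28%, 6.61% and 9.07% of tested genes were called lower. Nab2, a corepressor of EGR proteins, was called lower on days 7 and 10, at -1.70 and -1.95. Stem cell markers were also higher with CHIR, in 4, 3 and 3 of 5 on the 3 days, and smooth muscle markers lower in 0, 4 and 4 of 5. Their part in these differences was not tested.

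**Figure D4:**
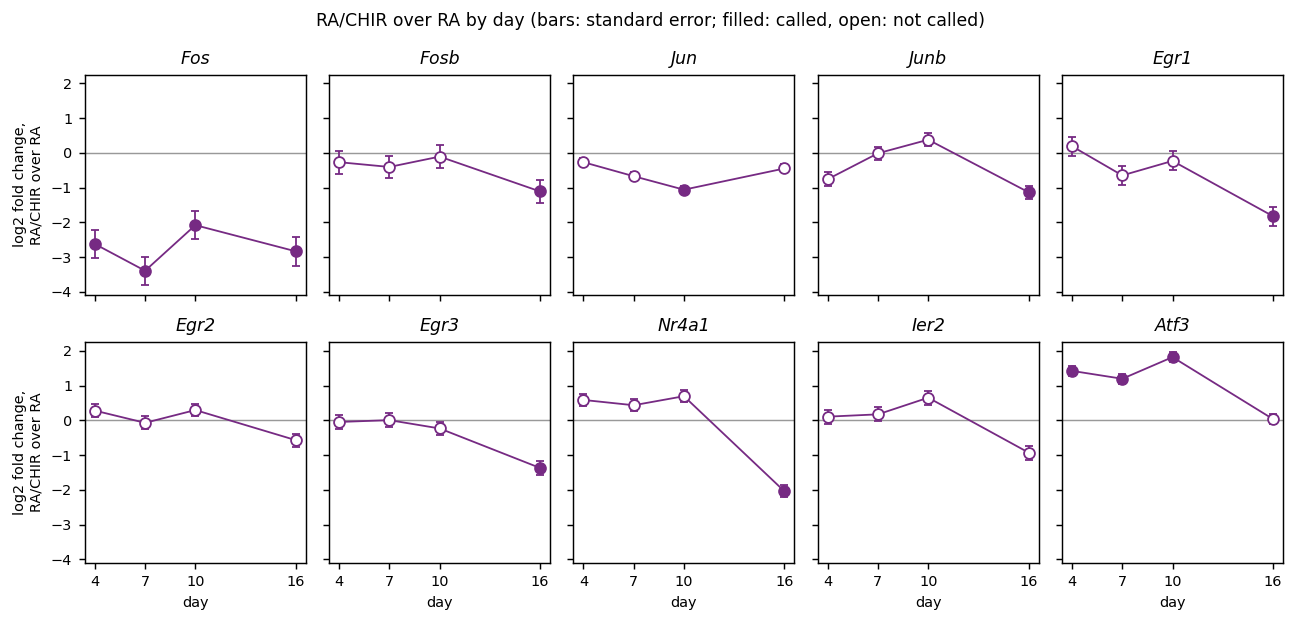
Each panel is a gene, with the day on the x axis and the log2 fold change of RA/CHIR over RA on the y axis, bars giving the standard error of the model and filled points the called comparisons. Fos is lower with CHIR on all 4 days, Atf3 is higher on days 4 to 10 and at 0.04 on day 16, and Nr4a1 is at 0.69 on day 10 and at -2.04 on day 16.

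On day 16, after the inducers had been withdrawn, 6 of the 10 genes were lower in RA/CHIR than in RA and none higher, in a background of 12.9% of tested genes called lower, 8.41% called higher and 21.3% called either way. Nr4a1 was lower by 2.04 ± 0.17 (limma, adjusted p = 6.63e-11), Egr3 by 1.37 ± 0.20 (limma, adjusted p = 1.17e-06) and Fos by 2.83 ± 0.41 (limma, adjusted p = 1.11e-06). Egr1 was lower by 1.82 ± 0.27 (limma, adjusted p = 1.77e-06), Junb by 1.14 ± 0.19 (limma, adjusted p = 1.13e-05) and Fosb by 1.11 ± 0.33 (limma, adjusted p = 0.00486). The groups of Fosb overlapped through RA-16d replicate 2. Not called were Ier2, at -0.93, Egr2, at -0.57, Jun, at -0.45, and Atf3, at 0.04.

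These calls rest in part on which RA-16d libraries are used. Without replicate 2, 7 genes were lower, with Ier2 added at -1.40, in a background of 21.6% called either way, and Fos was at -3.80, Fosb at -1.85, Egr1 at -2.47, Junb at -1.56, Egr3 at -1.57 and Nr4a1 at -2.30. All 10 genes then had RA/CHIR libraries below both RA libraries, against 6 of 10 with replicate 2, where 35.6% and 32.2% of tested genes did so. Without replicate 1 or without replicate 3, 4 genes were called, and Fosb (-0.84 and -0.65) and Junb (-0.96 and -0.89) were not. In a fit of the 2 groups alone, 5 genes were called, Fosb having an adjusted p of 0.196 in limma, where its adjusted p over all alternatives ran from 6.03e-10 to 0.196. Nr4a1 and Egr3 had the smallest adjusted p of the 10 in that fit, 0.000904 and 0.00223. The spread of replicate 2 also enters the standard error of Fos on every day, since 1 model covers all groups. For day 16 the same pooling gives errors smaller than the spread of RA-16d itself would give. The SD of log2(FPKM + 1) in RA-16d was 1.68 for Fos, 1.29 for Fosb, 1.11 for Egr1, 0.81 for Ier2 and 0.73 for Junb. It was smaller for Nr4a1, at 0.46, and Egr3, at 0.36. The day-16 p-values of these genes thus overstate how firm the differences are, most of all for those with the larger SD.

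**Figure D5:**
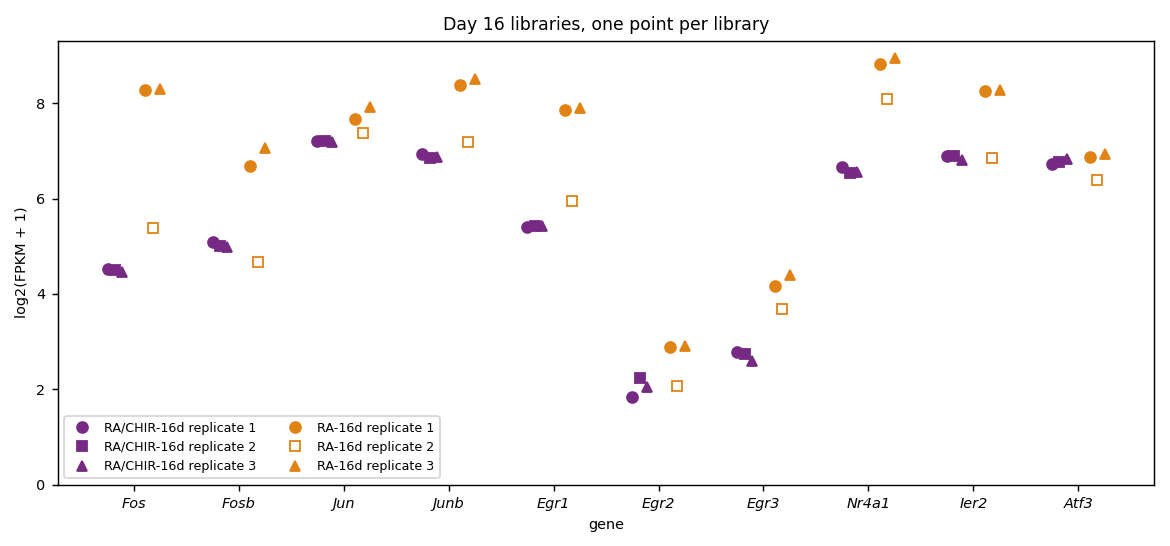
Points are the 6 libraries of day 16, with log2(FPKM + 1) on the y axis and genes on the x axis, RA/CHIR in purple to the left of RA in orange, open squares marking RA-16d replicate 2. RA/CHIR replicates sit close together in each gene, and the open square lies below both other RA points in all 10 genes and among or below the RA/CHIR points in Fosb, Ier2, Egr2 and Atf3.

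Of the 32 other immediate early genes, 12 were lower in RA/CHIR than in RA and 2 higher, with a median of -0.79, or 14 lower and 3 higher without replicate 2. Npas4, an activity-induced factor of neurons, averaged 0.288 FPKM in RA/CHIR and 16.6 FPKM in RA, a difference of -3.74, and Arc, a synaptic gene, averaged 1.67 and 30.8 FPKM, a difference of -3.56. Ier5 was lower, at -2.57, and Ier3 at -2.48. Klf4 and Klf6, of the Krüppel-like factors, were the pair that was higher with CHIR, by 1.37 each. Of 8 tested further members of the AP-1 family and its small MAF partners, Fosl2 (-1.08) and Maff (-1.19) were lower and Mafk (1.07) was higher. Fosl2 was lower with CHIR on all 4 days.

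The shares of all tested genes called on day 16, 12.9% lower and 8.41% higher, apply to the lists of genes that act before and after these factors as well. Of 12 feedback regulators of ERK signalling and EGR corepressors, 6 were lower with CHIR and none higher, of which Spry1 (-2.48), Dusp5 (-1.92), Nab2 (-1.75) and Spred1 (-1.67) differed most. Of 19 upstream kinases and factors, Rps6ka1, a kinase downstream of ERK, was higher by 1.65, and Elk3 (-1.16) and Crem (-1.14) were lower, a share no larger than that of all genes. Among 17 AP-1 target genes, 2 were higher and 4 lower: the urokinase gene Plau differed by -2.87 and its receptor gene Plaur by 2.31, Spp1 by 1.91 and Ccnd1 by -1.90. The heat shock genes Hspa1b (-3.17), Hspa1a (-2.10) and Hspb1 (-1.51) were lower, 3 of 11. In the integrated stress response, Ddit4 was lower (-2.66) and Asns higher (1.19). Markers moved too, as 5 of 5 smooth muscle and 9 of 12 fibroblast markers were lower with CHIR, 1 fibroblast marker, S100a4, was higher, and 6 of 6 extraembryonic endoderm and 4 of 5 stem cell markers were higher. Their part in the differences of the 10 genes was not tested.

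Between the 2 lines, XEN against SMC, 5 of the 10 genes were called, in a background of 29.7%. Egr2 was lower in XEN, at -3.03 ± 0.18 (limma, adjusted p = 4.27e-14), at 0.0445, 0.120 and 0.0993 FPKM in XEN against 8.85, 7.36 and 7.56 FPKM in SMC. Egr1 was lower, at -1.43 ± 0.27 (limma, adjusted p = 4.16e-05), at 10.9, 9.76 and 10.9 FPKM in XEN against 29.0, 29.5 and 31.5 FPKM in SMC. Junb was lower, at -1.18 ± 0.19 (limma, adjusted p = 4.95e-06), a call that quantile normalization ends at -0.94. Nr4a1 was higher by 1.59 ± 0.17 (limma, adjusted p = 4.85e-09), and Atf3 by 1.37 ± 0.14 (limma, adjusted p = 3.66e-09), at 28.6, 24.5 and 29.2 FPKM in XEN against 10.0, 9.34 and 10.6 FPKM in SMC. Fos (-0.86), Egr3 (-0.59), Ier2 (0.18), Fosb (-0.11) and Jun (-0.01) were not called. In XEN 14 of the 32 other immediate early genes were lower than in SMC and 1 higher, where 17.2% of tested genes were called lower and 12.5% higher.

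The day-16 levels were also set beside the lines and mES, as a description, since the genes were chosen for being high on day 16. All 10 genes were higher in every RA/CHIR-16d library than in every XEN library, as were 38.6% of tested genes. In RA-16d 9 were above SMC and Egr2 was below, where 36.6% of tested genes were above, or 39.6% without replicate 2, with the same count of members. Set against mES, RA/CHIR-16d libraries were above in 5 genes (Jun, Junb, Egr3, Nr4a1 and Atf3), where 35.4% of tested genes were, below in 3 (Fos, Egr1 and Ier2), where 37.1% were, and overlapping in Fosb and Egr2. RA-16d libraries were above mES in 7 genes, where 38.1% of tested genes were, while Fos, Fosb and Ier2 overlapped mES through replicate 2. Without that library 10 were above, where 40.2% of tested genes were. XEN was below mES in 7 genes, where 41.7% of tested genes were, and SMC in 6, where 40.7% were.

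Over the 11 group means of log2(FPKM + 1), Pearson correlations among the 45 pairs of the 10 genes ran from 0.362 for Fos with Atf3 to 0.957 for Junb with Egr1, or 0.420 to 0.962 for the same pairs without RA-16d replicate 2. With the mean profile of all 10, Egr1 correlated most (0.964) and Jun least (0.765). These are descriptions over groups that share cells and days, and the genes were chosen for a common course. The genes outside the set most like that profile were Slc25a25, a mitochondrial carrier gene (0.937), Fbxo33 (0.930), Ifrd1 (0.924), Grem1, a secreted BMP antagonist (0.911), Zfp36 (0.905), Ptgs2, the inducible cyclooxygenase (0.895), Arid5a and Angptl4 (0.890 each), Cnp (0.885) and Serpinb1a (0.881). Without replicate 2 their correlations lay between 0.865 for Cnp and 0.939 for Slc25a25. Slc25a25 averaged 10.4 FPKM in mES, 37.6 in RA/CHIR-16d against 8.05 in RA/CHIR-10d, and 52.8 in RA-16d against 7.51 in RA-10d. Most like Fos alone were Ccnd3, a cyclin D gene (0.912), Tnip1 (0.901), Atpif1 (0.889), Fbxo33 (0.879) and Zswim4 (0.877), or 0.887, 0.870, 0.896, 0.872 and 0.845 without replicate 2.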

How the data were processed

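RNA of 33 mouse cell libraries in 11 groups of 3 was measured by poly(A) sequencing with paired reads of 150 bases, per the labels' protocols. Trimmomatic 0.33, HISAT2 2.0.4, Cufflinks, Cuffdiff and the build GRCm38 are named in the submitters' processing notes. The deposited table holds 1 FPKM value per gene and library, made by the authors. No counts come with it, so depth and counting error are unknown, and no count test was run.

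From the deposited FPKM, log2(FPKM + 1) was computed for genes with at least 1 FPKM in at least 3 libraries. These 16508 genes were fitted with limma 3.58.1 (R 4.3.3) in 1 model of 11 groups with trended variances, and p-values (two-sided) were adjusted over all tested genes by Benjamini-Hochberg. A gene was called at an adjusted p under 0.05 with a log2 fold change of at least 1. The fit was tested on simulated data. Values were handled in Python 3.11.15.

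The members and gene lists were chosen with earlier results of these data known, and the lower levels in RA/CHIR on day 16 had been seen before, so they are no independent support. Steps that chose the genes were not tested. The genes named are the 10 members, up to 4 called genes per list with the largest differences on day 16, and the genes most like the members by correlation over group means (at least 5 FPKM in the highest group). Nr4a3, Dusp1, Srf, Klf4, Klf6 and S100a4 were added after their values were seen. Alternatives were other scalings (factors of the TMM kind, quantile normalization), a pseudocount of 0.1, no filter, a filter at 5 FPKM, a model of the 2 groups alone, variances without a trend, a replicate block, leaving out each replicate, and adjusted p alone. The Egr1 promoter and position are not reported here.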

Additional observations from a re-analysis of the deposited data

Results flagged for a closer look

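The RA/CHIR over RA difference of Junb changed sign between days, with no overlap of RA/CHIR and RA libraries within any of the days compared. It was 1.14 larger on day 10 than on day 4 on the log2 scale, and on day 16 it differed from day 10 by -1.51. Nr4a1 showed the same kind of change of sign between day 16 and each earlier day. Its RA/CHIR over RA difference on day 16 minus that on day 4 was -2.63, minus that on day 7 it was -2.47, and minus that on day 10 it was -2.73. These differences between days were not tested.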

How the results depend on the processing

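Of the values of single genes in the 5 tested comparisons under other settings, 676 kept their direction and their side of the threshold, 6 were no longer called, 4 became called and 14 changed sign, none of the 14 being called. With adjusted p alone, 4, 4 and 5 of the 10 genes passed on days 4, 7 and 10, among 7084, 7812 and 9112 genes, and 10216 genes passed on day 16 and 10744 in XEN against SMC. With a pseudocount of 0.1, 2192, 2964 and 3888 genes were called on days 4, 7 and 10. The median over the 10 genes was then -2.50 for RA/CHIR-4d over mES and -2.69 for RA-4d over mES, and 3.38 for day 16 over day 10 in RA/CHIR. Between days 4 and 7 and between days 7 and 10 it was 0.20 and -0.29 in RA and -0.14 and 0.25 in RA/CHIR. Egr2 was then called on days 4 (1.37) and 10 (1.32), and Fosb on day 7 (-1.81). Under quantile normalization, the RA/CHIR-4d median against mES was -2.10, and XEN over SMC was 0.25 for Fosb and 0.034 for Jun.

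Leaving out 1 replicate at a time, 4 to 7 of the 10 genes were called on day 16, and 2, 2, 3 and 5 in the other comparisons, as before. The genes called numbered 1261 to 1276 on day 4, 1776 to 1803 on day 7, 2561 to 2595 on day 10, 3468 to 3538 on day 16 and 4755 to 4905 in XEN against SMC. Signs turned, near 0, for Egr3 on day 4, with a range of -0.094 to 0.0029 (0.00080 without RA-4d replicate 3, 0.0029 without RA/CHIR-4d replicate 2). On day 7 they turned for Junb, between -0.087 and 0.027 (0.017 and 0.026 without RA-7d replicates 1 and 2, 0.027 and 0.020 without RA/CHIR-7d replicates 1 and 3), and without RA-7d replicate 3 for Egr2 (-0.11 to 0) and Egr3 (-0.015). On day 10, without RA-10d replicate 2, they turned for Fosb (-0.21 to 0.053) and Egr3 (-0.38 to 0.0058). On day 16, without RA-16d replicate 2, Atf3 was at -0.14, in a range up to 0.14, and without XEN replicate 3, Jun was at 0.060 over SMC, in a range from -0.056. The cause of these changes was not tested.

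Replicate numbers were not treated as pairs in the main fit, and correlations of same-numbered deviations between groups were small, from -0.076 to 0.103. On days 4 and 7 each of them lay above the highest correlation with another number, such as 0.103 against 0.005 for replicate 1 of day 7. On day 10 each lay below it. Whether equal numbers mark paired samples cannot be told from these values. With the replicate block, the members called numbered 2, 2, 3, 6 and 5, and the genes called 1260, 1764, 2544, 3514 and 4906, on days 4, 7, 10 and 16 and in XEN against SMC. Precision is limited by 3 replicates a group and by unknown depth, most of all for genes under 1 FPKM.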
